A study of Mus musculus with 12 samples.

Results

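Heat shock chaperone transcripts were examined in lower motor neurons of mice that carry an ALS-linked change in TDP-43. Genes were taken from the deposited table by name: symbols of the Hsp families and of the Dnaj family, Bag1 to Bag6, Hsf1 and Hsf2, with a mean of at least 20 counts over the 12 libraries. The 4 names that belong to chaperones of the endoplasmic reticulum (Hspa5, Hsp90b1, Dnajb9 and Dnajc3) were left out. Of 82 symbols matched by name, 69 genes remained, out of 25965 entries in the table. The 9 symbols under the minimum had means from 0 (Dnajb8 and Dnajc5g) to 7.58 counts (Hspb7). The members just above it were Hspb2 with 97.2, Dnajb3 with 240.4 and Hspa1b with 270.5 mean counts, so minimums of 10, 20 and 50 counts kept the same number of genes. The rule did not hold to the cytosol and mitochondria. It kept 7 genes known in the endoplasmic reticulum (Hspa13, Dnajb11, Dnajb12, Dnajb14, Dnajc1, Dnajc10 and Dnajc16), and 2 genes, Hspbap1 and Hspb11, that carry a heat shock name without being chaperones.

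The study sequenced polyA RNA from lumbar lower motor neurons that were cut out by laser from C57BL/6 mice at 5 months of age. Wild type mice (+/+), heterozygotes (Q331K/+) and homozygotes (Q331K/Q331K) gave 4 libraries each. Q331K changes 1 residue of TDP-43, a protein that binds RNA, and was knocked in at the mouse gene. No transgene promoter is therefore involved. Whether animals were pooled for a library, or sampled more than once, is not in the labels, so the p-values below measure the spread between libraries.

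Heat shock chaperones keep other proteins folded and soluble. Hsp70 proteins bind unfolded stretches in cycles of ATP hydrolysis that J proteins (the Dnaj genes) start and that exchange factors (Hsp110 proteins, Bag proteins and Hspbp1) end, and Hsp90 completes the folding of signalling proteins. Small heat shock proteins hold unfolding proteins without using ATP, and Hspd1 with its lid Hspe1 forms the folding chamber of mitochondria. Heat shock factor 1, encoded by Hsf1, switches on many of these genes through heat shock elements, which are repeats of GAA in alternating orientation. Motor neurons are known for a high threshold for this response. Inherited changes in human HSPB1, HSPB3, HSPB8 and DNAJB2 cause motor neuropathies, and DNAJC7 is linked to ALS.

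RefSeq promoter sequences of build GRCm38.p6, from 250 bases before to 50 bases after the start of a gene, were matched to 55 of the 69 members by symbol and gave 73 promoters. Hspa8, Hsp90aa1 and Hsp90ab1 were among the members without a match. Stretches are shown for the 3-unit matches and for some of the 2-unit matches, those of Hspb1, Hspb8 and Bag3 included. Whether a match goes with the values of a gene across libraries was not tested. The 3-unit pattern GAANNTTCNNGAA, searched on both strands, lay in 6 of the 73 promoters (8.22%) and in 0.603% of 32851 promoters in all. Dnajb6 and Hsph1 were each counted with 2 overlapping promoters that hold the same match. Counted by gene, 4 of 55 members held the pattern, beside 0.662% of 27025 genes. The 2-unit pattern GAANNTTC, which every 3-unit match contains, lay in 15 of the 73 (20.5%) and in 7.86% of all. By gene it lay in 13 of 55 members and in 9.04% of all genes. Capitals mark the matched bases in each stretch, read 5′ to 3′ on the strand of the gene. A match is a description of these letters and not evidence of binding.
Hspe1: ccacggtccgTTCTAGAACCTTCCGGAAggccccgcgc
Hspd1: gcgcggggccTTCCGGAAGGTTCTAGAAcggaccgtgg
Dnajb6: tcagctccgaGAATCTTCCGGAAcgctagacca
Hsph1: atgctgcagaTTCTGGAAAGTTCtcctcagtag
Hspb1: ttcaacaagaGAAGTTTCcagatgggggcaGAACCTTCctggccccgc
Hspb8: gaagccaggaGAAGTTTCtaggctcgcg
Bag3: gatgggaccaGAAGTTTC
Hspa1a: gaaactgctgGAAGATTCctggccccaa
The first 2 lines hold the same bases on opposite strands (chr1:55088049-55088086), since Hspe1 and Hspd1 start head to head and their promoter windows share 285 bases. This was the only stretch among the members with 2 of the 3-unit matches. The Dnajb6 stretch (chr5:29735842-29735874, plus strand) lay 46 or 127 bases before the start, depending on the promoter taken. The Hsph1 stretch (chr5:149636278-149636310, minus strand) lay after the start. Hspb1 (chr5:135887792-135887839, plus strand) held 2 of the 2-unit matches, which began 117 and 97 bases before the start. The matches of Hspb8 (chr5:116422845-116422872, minus strand) and Bag3 (chr7:128523615-128523632, plus strand) lay after the start. The Hspa1a stretch (chr17:34972243-34972270, minus strand) was found letter for letter in Hspa1b too, its near-identical copy. Dnaja1, Dnajc27 and Hspb6 each held a 2-unit match as well, and Dnaja4 held 2, which began 90 and 52 bases before the start. For the gene with the widest spread between libraries among well-measured members, the whole promoter of Hspb1 (chr5:135887669-135887968, plus strand) is given with the same matches in capitals.
Hspb1 promoter: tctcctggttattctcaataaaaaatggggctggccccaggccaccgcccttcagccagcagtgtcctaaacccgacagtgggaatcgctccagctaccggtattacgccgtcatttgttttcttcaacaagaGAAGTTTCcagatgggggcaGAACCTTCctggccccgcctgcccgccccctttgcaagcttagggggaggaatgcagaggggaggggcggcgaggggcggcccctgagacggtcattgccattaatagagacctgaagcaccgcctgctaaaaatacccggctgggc

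Total counts ran from 60886825 to 83504446 per library, and the 69 members held 1.5% to 1.69% of them. Levels are CPM, the counts of a gene scaled to a common library total. The captures held motor neuron RNA in every library, with Chat, the enzyme that makes acetylcholine, between 63.5 and 353 CPM. The libraries heterozygote 1 and homozygote 1 stood apart. In them the 8 inhibitory interneuron markers summed to 21.3 and 15.8 CPM, against 189 to 465 CPM in the other 10 libraries, and the 14 motor neuron markers summed to 49939 and 50386 CPM against 21140 to 34610 CPM. Such a sum is carried by the abundant markers. By the mean log2 CPM of the same markers heterozygote 1 was at 8.91 and homozygote 1 at 8.65, the latter below wild type 1 at 8.73. They are called the interneuron-poor libraries, and both carry the mutation, so values below are given with and without them where it matters.

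The chaperone pool was dominated by a few constitutive genes. Hspa8, the constitutive cytosolic Hsp70, averaged 4196 CPM and made up 26.6% of the summed CPM of the members (24.5% to 28.8% across libraries). Hsp90ab1, the constitutive Hsp90, averaged 2448 CPM and Hsp90aa1, its stress-responsive partner, 2110 CPM. Together these 3 genes held 55.5% of the members' CPM, with a range of only 54.0% to 56.6% over the 12 libraries. Next in order came Dnaja1, a cytosolic J protein, with 535 CPM, the mitochondrial chaperonin Hspd1 with 356 CPM, the Hsp110 protein Hsph1 with 336 CPM, Hspb1 with 332 CPM, the mitochondrial Hsp70 Hspa9 with 317 CPM, Hspa4l with 303 CPM and Bag1 with 298 CPM. The heat-inducible Hsp70 genes were at the other end of the scale, with Hspa1a at 7.38 CPM and Hspa1b at 3.77 CPM. Their split is uncertain because the copies are near-identical. How reads that match both copies were counted is not given, so their sum is uncertain too. The Hspa8 level was 405 times the summed level of these copies as counted on average, and between 241 and 745 times in single libraries.

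**Figure D1:**
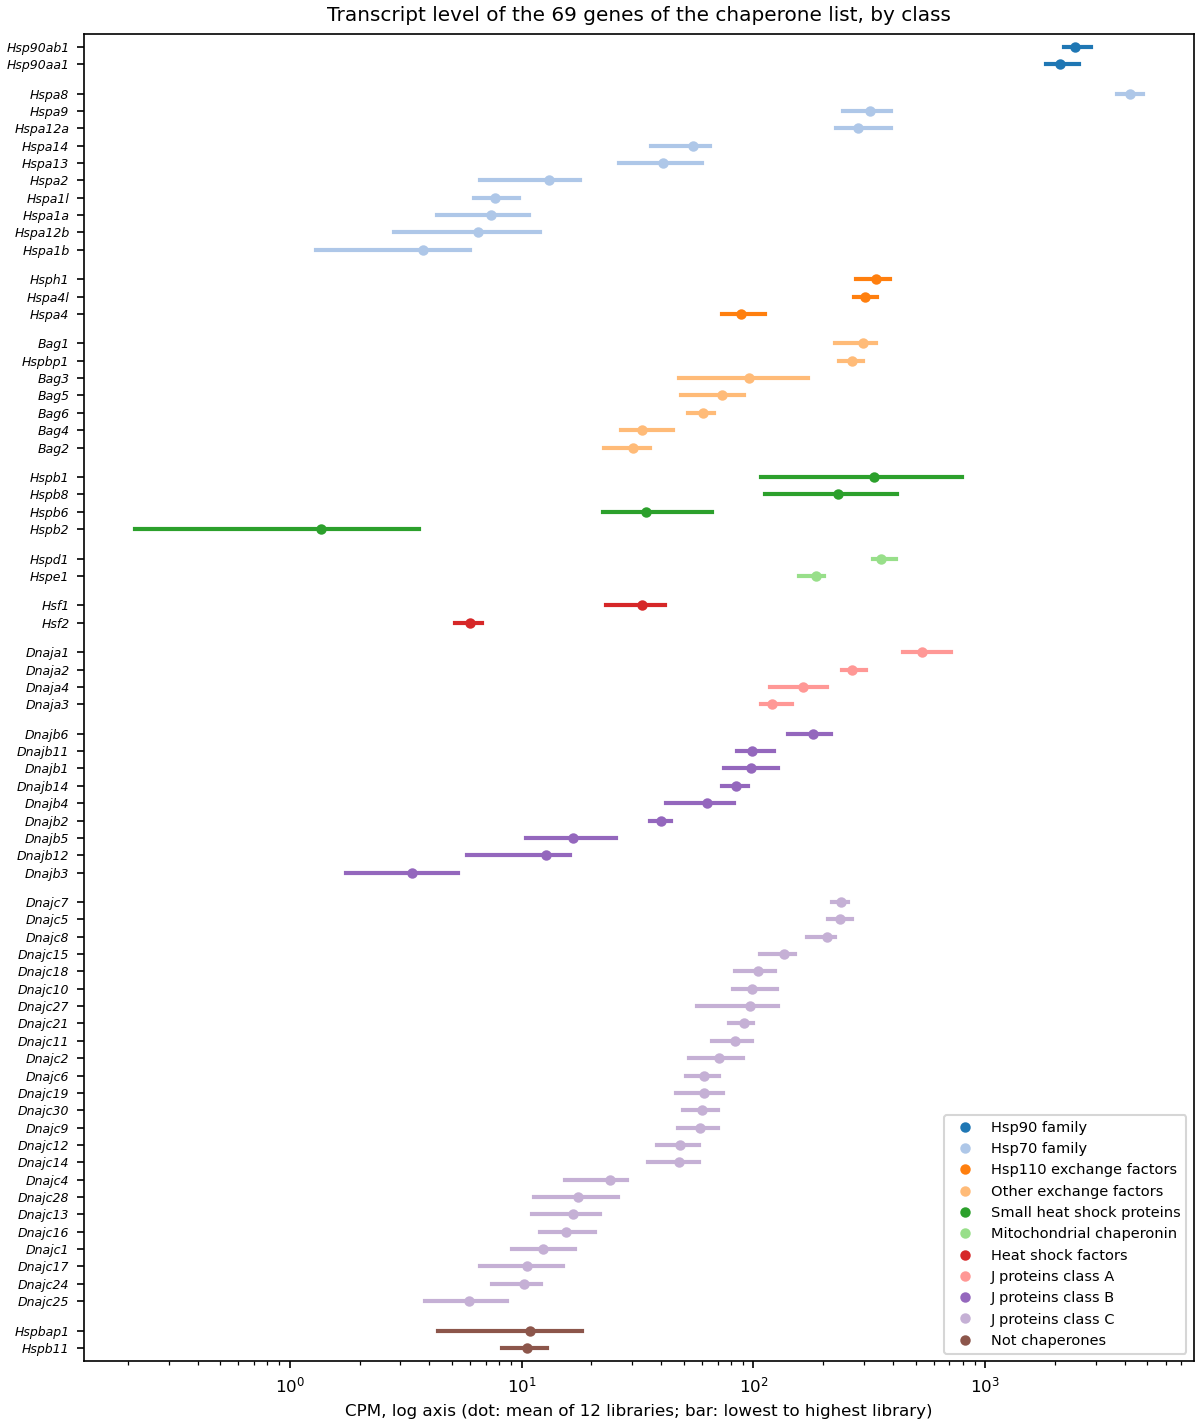
Level of each of the 69 genes in CPM on a log axis, grouped and coloured by class; the dot is the mean of the 12 libraries and the bar runs from the lowest to the highest library. Hspa8, Hsp90ab1 and Hsp90aa1 lie at 1828 CPM or more in every library, and the bars of Hspb1 and Hspb8 are among the longest of the abundant genes.

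Per length, in CPM per kilobase of merged exons, the order was Hspa8 (976), Hsp90ab1 (816), Hsp90aa1 (537), Hspb1 (322), Bag1 (221), Hspbp1 (141), Hspd1 (135), Hspe1 (126), Hspb8 (119) and Dnaja2 (89.8). With the longest transcript as the length, 9 of these 10 stayed among the 10 highest. Neighbours in this order were not all separated by the spread between libraries. Hspb1 ran from 105 to 772 CPM per kilobase and so spanned the means of 6 neighbours (Hsp90aa1, Bag1, Hspbp1, Hspd1, Hspe1 and Hspb8), while the ranges of Hspa8 and Hsp90ab1 also overlapped. The ratio of Hsp90ab1 to Hsp90aa1 in CPM was 1.16 with a coefficient of variation of only 3.75%. The ratio of Hspd1 to Hspe1, whose products work as 1 machine, was 1.93 and ran from 1.66 to 2.47.

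Members varied little between libraries as a group. Their median coefficient of variation over the 12 libraries was 14.02%, against 26.2% for all 16338 genes tested, and among genes of at least 10 CPM it was 12.8% for 61 members against 16.4% for 9186 genes. Dnajc7, a J protein that also binds Hsp90, was the steadiest at 4.65%, although its entry overlaps the oligodendrocyte gene Cnp on the other strand. Dnajc5, the cysteine string protein of synaptic vesicles, followed at 5.84% and Dnajb2, a neuronal J protein, at 5.88%. At the other end, among members of 5 CPM or more, were Hspb1 at 58.9%, Hspa12b and Hspb8 at 42.5% each, Bag3 at 40.1% and Hspbap1 at 39.0%.

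Between homozygotes and wild type, 0 of the 69 members passed edgeR's quasi-likelihood test at a Benjamini-Hochberg adjusted p below 0.05, beside 1 of 16338 genes (0.00612%). The same count was 0 of 69 between heterozygotes and wild type and between homozygotes and heterozygotes, where no gene of the whole table passed either (0.0%). For any genotype difference it was 0 of 69 (0.0% of all genes), and for the slope per mutant allele 0 of 69 (0.00612% of all genes). DESeq2 and limma-voom also called 0 members in each of these 5 comparisons. At an unadjusted p below 0.05, 5 members were counted between homozygotes and wild type (7.25%, against 4.82% of all genes), 2 between heterozygotes and wild type (2.9% against 4.1%) and 2 between homozygotes and heterozygotes (2.9% against 2.97%). For any difference the count was 4 (5.8% against 3.59%) and for the slope 6 (8.7% against 4.67%). These shares lie near the background.

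The direction was evenly split. In homozygotes 34 of 69 members had a value above wild type and 35 below, with a median log2 difference of -0.001 against -0.003 over all genes. In heterozygotes 32 were above and 37 below, with a median of -0.008 against -0.001. Both comparisons use the same wild type libraries, so their counts are not independent. The libraries were precise enough to bound most members. The 95% interval of the difference between homozygotes and wild type lay inside 1.5-fold in both directions for 48 of 69 members (69.6%), against 34.9% of all genes. Between heterozygotes and wild type it did so for 47 members (68.1%), against 35.8%. Members were more abundant, with a median of 62.8 CPM against 14.5 CPM for all genes tested. Shares at equal level were not computed.

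**Figure D2:**
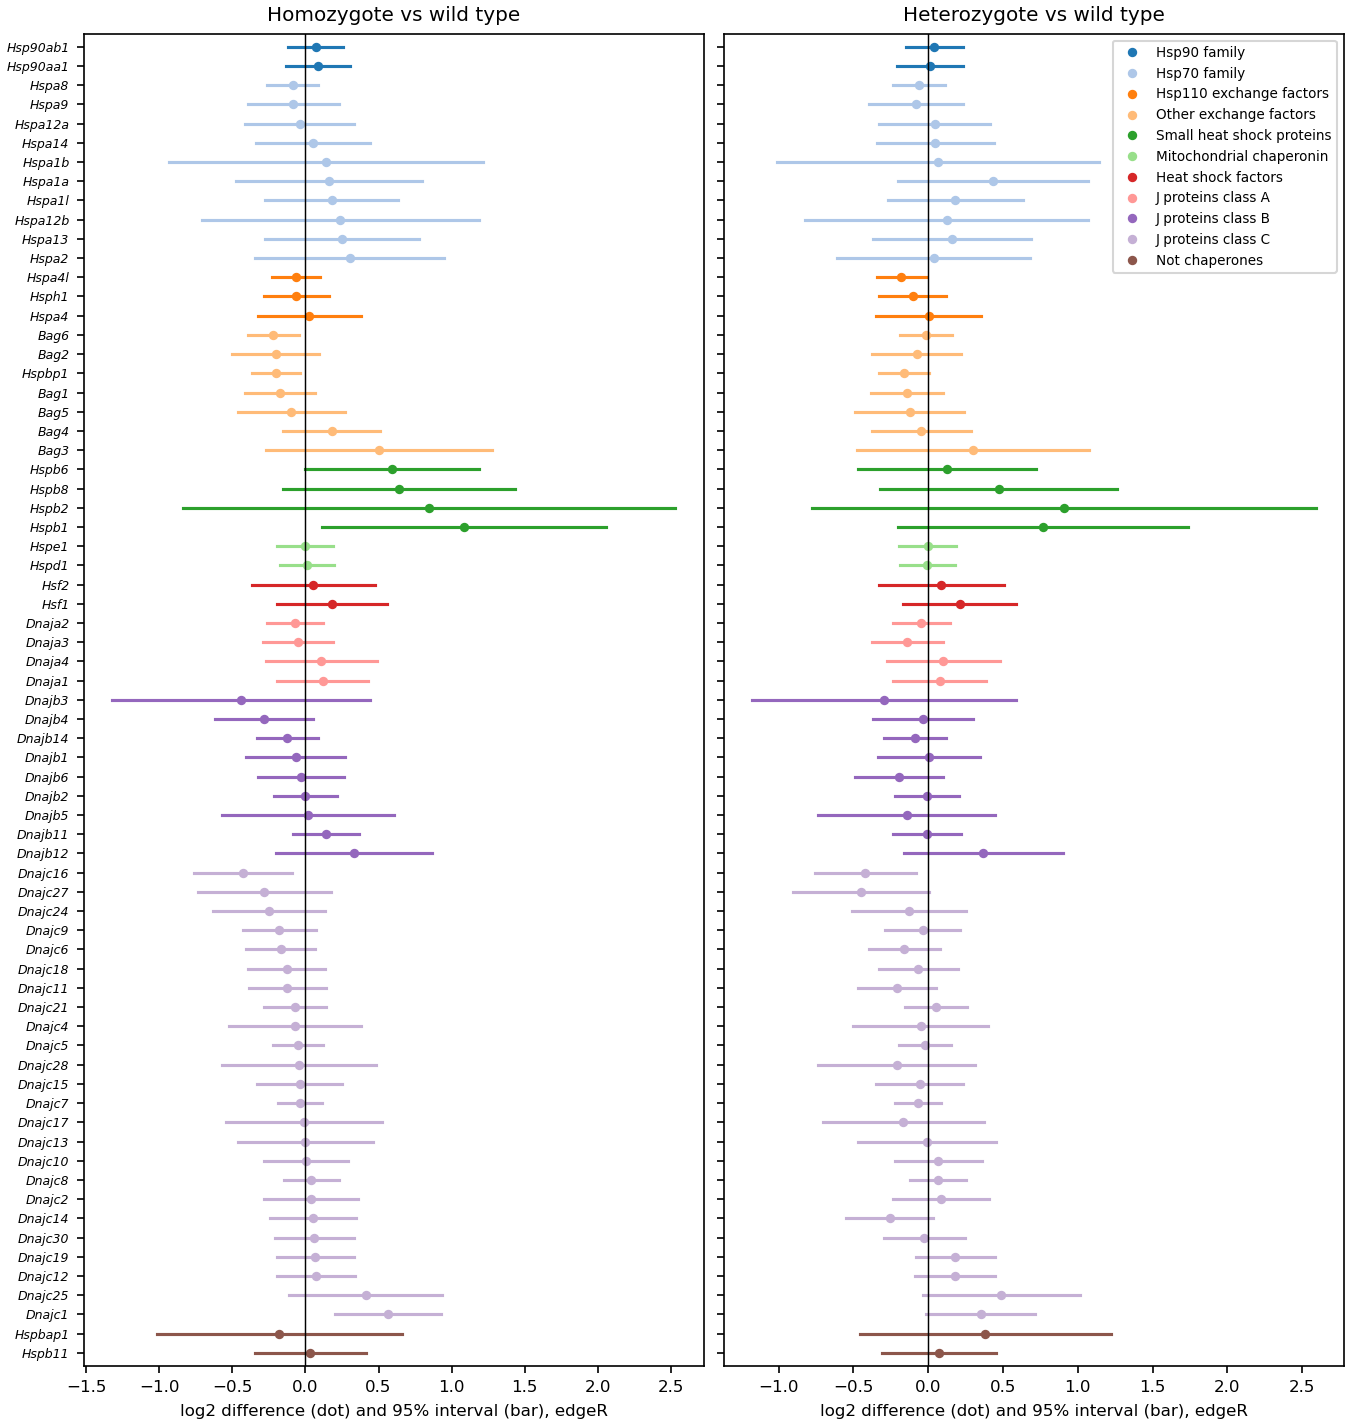
Log2 difference (dot) and 95% interval (bar) of every member from the edgeR model of all 12 libraries, for homozygotes against wild type (left) and heterozygotes against wild type (right), coloured by class. Most intervals cross 0 and are narrow, and the 4 small heat shock proteins lie to the right of 0 in both panels with wide intervals.

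Hspa8 and both Hsp90 genes, the abundant core of the network, had narrow intervals around 0 between genotypes. The intervals of 6 other Hsp70 genes (Hspa12b, Hspa2, Hspa13, Hspa1a, Hspa1b and Hspa1l) reached past 1.5-fold in both mutants. Of 10 Hsp70 family genes, 7 were above and 3 below wild type in homozygotes, with a median log2 difference of 0.15 and a largest of 0.30. Hspa8 measured 4804, 4286, 4063 and 4213 CPM in wild type libraries 1 to 4, 4795, 4009, 3859 and 3982 CPM in heterozygous libraries and 4336, 4072, 3683 and 4251 CPM in homozygous ones. The 3 genotypes overlapped, and the interval of the log2 difference of homozygotes from wild type was -0.26 to 0.09. Hsp90aa1 averaged 2062 ± 105 CPM in wild type, 2079 ± 301 CPM in heterozygous libraries and 2188 ± 233 CPM in homozygous ones (SD, n = 4 each), and its interval in homozygotes was -0.13 to 0.30. Hsp90ab1 averaged 2385 ± 106, 2453 ± 280 and 2505 ± 239 CPM in the same order, with an interval of -0.12 to 0.26. The highest values of both Hsp90 genes were those of the interneuron-poor libraries.

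The heat-inducible Hsp70 genes, as counted, stayed at a few CPM in every genotype. Hspa1a averaged 6.38 ± 1.66 CPM in wild type, 8.62 ± 1.47 CPM in heterozygous libraries and 7.13 ± 2.62 CPM in homozygous ones (SD, n = 4 each). Hspa1b averaged 3.59 ± 0.991, 3.76 ± 1.91 and 3.96 ± 1.91 CPM. Their intervals were wide, from -0.47 to 0.79 for Hspa1a and from -0.93 to 1.21 for Hspa1b in homozygotes. The transcription factor Hsf1 averaged 30.1 ± 4.81, 34.8 ± 4.50 and 34.1 ± 6.78 CPM and its relative Hsf2 5.82 ± 0.521, 6.19 ± 0.377 and 6.04 ± 0.557 CPM, again with overlapping libraries. The list of 15 heat-inducible members also holds Hspa8 and Hsp90ab1, called constitutive above. Of these 15, 9 were above and 6 below wild type in homozygotes, with a median of 0.07.

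The mitochondrial chaperonin was close to equal across genotypes. Of 9 members known in mitochondria, 3 were above and 6 below wild type in homozygotes. Hspd1 measured 386, 351, 336 and 349 CPM in wild type, 383, 350, 343 and 341 CPM in heterozygous libraries and 412, 336, 329 and 354 CPM in homozygous ones. Hspe1 measured 157, 198, 202 and 188 CPM, then 183, 191, 179 and 189 CPM, then 196, 175, 195 and 176 CPM. The log2 differences of homozygotes from wild type were 0.01 (interval -0.18 to 0.19) for Hspd1 and -0.01 (-0.20 to 0.19) for Hspe1. The genes overlap by 112 bases on opposite strands, and the kit kept no strand, so reads of that stretch cannot be assigned. Hspa9 averaged 329 ± 35.5, 311 ± 58.3 and 311 ± 46.9 CPM (SD, n = 4 each), and the mitochondrial J protein Dnaja3 126 ± 17.9, 114 ± 6.44 and 122 ± 11.96 CPM.

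Small heat shock proteins showed the largest values. All 4 (Hspb1, Hspb2, Hspb6 and Hspb8) had log2 differences above 0 in both mutant genotypes over all 12 libraries, but none passed the test. Their median log2 differences were 0.74 in homozygotes and 0.62 in heterozygotes. For Hspb6 in heterozygotes the direction depended on the interneuron-poor libraries, as given below. Some cell type markers also leaned by genotype over all libraries, the interneuron-poor ones included, but none passed the test. In homozygotes and heterozygotes 11 of 14 motor neuron markers were above wild type in each (medians 0.28 and 0.26). Of 8 inhibitory interneuron markers, 0 and 1 were (medians -0.78 and -0.67). Excitatory interneuron markers had 1 and 2 of 4 above, and oligodendrocyte markers 5 and 0 of 8. The part of cell composition in the chaperone values was not tested apart from the alternatives given here. Hspb1 (ENSMUSG00000004951, chr5:135887919-135889563, plus strand), an actin- and filament-protecting chaperone, measured 356, 233, 108 and 129 CPM in wild type. It measured 621, 285, 273 and 227 CPM in heterozygous libraries and 796, 299, 354 and 302 CPM in homozygous ones. The first library of each genotype was the highest, and wild type 1 exceeded 3 of the 4 homozygote libraries. The log2 difference of homozygotes was 1.08 (SE 0.45, interval 0.11 to 2.06, unadjusted p = 0.0318 and adjusted p = 0.986 by edgeR), a fold of 2.12. For heterozygotes it was 0.77 (SE 0.45, interval -0.20 to 1.74). Without both interneuron-poor libraries these became 0.63 and 0.35, and with genes detected per library as a covariate 0.48 and 0.22. Without wild type 1 they were 1.49 and 1.17.

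Hspb8, which works with Bag3 to send misfolded proteins to autophagy, measured 308, 166, 118 and 112 CPM in wild type, 417, 193, 214 and 151 CPM in heterozygous libraries and 393, 233, 242 and 229 CPM in homozygous ones. Bag3 measured 125, 92.8, 49.9 and 48.0 CPM, then 157, 69.5, 89.0 and 72.3 CPM, then 172, 85.9, 87.7 and 102 CPM. Both genes overlapped between all genotypes, and wild type 1 was again well above the other wild type libraries. Their log2 differences in homozygotes were 0.64 (interval -0.15 to 1.43) and 0.50 (-0.27 to 1.28), and without both interneuron-poor libraries 0.42 and 0.22. In heterozygotes they were 0.47 and 0.30, and 0.08 and -0.03 without those libraries. With genes detected as a covariate Hspb8 was at 0.29 and Bag3 at 0.09 in homozygotes, and at 0.12 and -0.09 in heterozygotes. Without wild type 1 they were at 1.07 and 0.82 in homozygotes and at 0.89 and 0.61 in heterozygotes. Hspb6 averaged 28.6 ± 7.49, 31.2 ± 10.2 and 43.1 ± 15.5 CPM (SD, n = 4 each), but its entry overlaps BC053749 and, on the other strand, Lin37. Its difference in homozygotes was 0.59, 0.32 without homozygote 1 and 0.22 with genes detected as a covariate. Without both interneuron-poor libraries it was 0.31, and homozygotes exceeded heterozygotes by 0.44, so that heterozygotes lay below wild type. Hspb2 stayed between 0.214 and 3.63 CPM. At this low level it held the largest heterozygote difference of the small heat shock proteins, 0.91, and it enters both medians above.

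**Figure D3:**
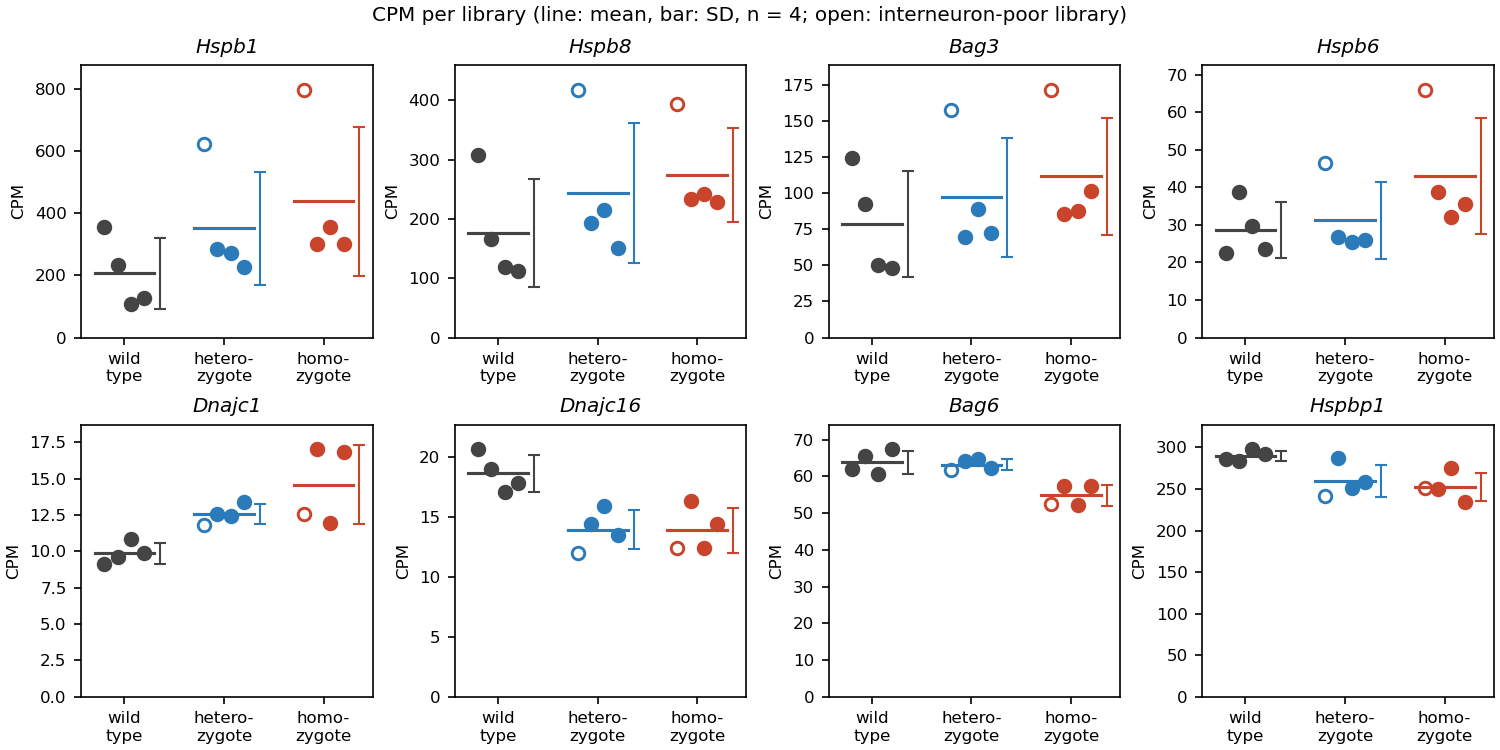
CPM of 8 members in every library by genotype; the line is the mean, the bar the SD (n = 4), and open circles are the interneuron-poor libraries heterozygote 1 and homozygote 1. The open circles are the highest of their genotype for Hspb1, Hspb8, Bag3 and Hspb6, and those libraries do not stand above their genotype for Dnajc1, Dnajc16, Bag6 and Hspbp1.

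Other members with small unadjusted p-values had smaller standard errors than Hspb1. Dnajc1, a J protein of the endoplasmic reticulum membrane (ENSMUSG00000026740, chr2:18195654-18392830, minus strand), measured 9.10, 9.62, 10.8 and 9.88 CPM in wild type, 11.8, 12.6, 12.5 and 13.4 CPM in heterozygous libraries and 12.6, 17.0, 11.9 and 16.8 CPM in homozygous ones. Both mutant genotypes lay above all wild type libraries. Its log2 difference was 0.57 in homozygotes (SE 0.17, unadjusted p = 0.00511, adjusted p = 0.986 by edgeR) and 0.35 in heterozygotes. Its entry overlaps Mllt10 on the other strand, whose counts over the whole gene were 107% of those of Dnajc1. Reads of the shared stretch cannot be assigned, and their part in the counts of Dnajc1 was not measured. Dnajc16 (ENSMUSG00000040697, chr4:141760189-141790931, minus strand) measured 20.6, 19.0, 17.1 and 17.8 CPM in wild type, 11.96, 14.4, 15.9 and 13.5 CPM in heterozygous libraries and 12.4, 16.3, 12.4 and 14.4 CPM in homozygous ones. Every mutant library was below every wild type library, with log2 differences of -0.43 (SE 0.15) in homozygotes and -0.42 (SE 0.15) in heterozygotes.

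Of 7 exchange factors outside the Hsp110 group, 2 were above and 5 below wild type in homozygotes. Bag6, a quality control factor for membrane proteins (ENSMUSG00000024392, chr17:35135178-35147322, plus strand), measured 62.1, 65.5, 60.6 and 67.4 CPM in wild type, 61.7, 64.1, 64.8 and 62.2 CPM in heterozygous libraries and 52.4, 57.3, 52.3 and 57.5 CPM in homozygous ones. The homozygotes lay below both other genotypes, by a log2 difference of -0.22 (SE 0.08) from wild type and -0.20 (SE 0.08) from heterozygotes. Hspbp1, which releases nucleotide from Hsp70, measured 286, 284, 298 and 292 CPM in wild type and 251, 250, 275 and 235 CPM in homozygous ones, with 241, 287, 251 and 258 CPM in heterozygous libraries. Its log2 difference was -0.20 (SE 0.08) in homozygotes and -0.16 (SE 0.08) in heterozygotes. Neither passed, with an adjusted p of 0.986 by edgeR for both genes between homozygotes and wild type. Bag1, the most abundant exchange factor of its family, averaged 320 ± 15.7, 290 ± 43.2 and 284 ± 27.5 CPM (SD, n = 4 each).

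Between homozygotes and wild type, Dnajc1 was the single member with all values above and 3 members (Hspbp1, Bag6 and Dnajc16) had all values below, beside 1.29% and 2.12% of all genes. Between heterozygotes and wild type, 2 members lay wholly above (Dnajc1 and Dnajc25, beside 1.48% of all genes) and 4 wholly below (Hspa4l, Dnajc27, Dnajc16 and Dnajc24, beside 1.76%). Hspa4l, an Hsp110 protein, had a mean of 321 ± 21.5 CPM for wild type and of 283 ± 8.28 CPM in heterozygous libraries (SD, n = 4 each), with homozygotes between them at 307 ± 21.1 CPM. Dnajc27, a small GTPase with a J domain, averaged 114 ± 16.0, 83.1 ± 16.2 and 93.5 ± 26.1 CPM and was lowest in the interneuron-poor libraries. Between homozygotes and heterozygotes, no member lay wholly above (1.03% of all genes) and Bag6 and Dnajc9 lay wholly below (0.998%). Dnajc14, with 41.8 ± 6.42 CPM in heterozygous libraries and 51.7 ± 7.13 CPM in homozygous ones, had a log2 difference of 0.31 (SE 0.13). Dnajb4, a cytosolic relative of Dnajb1, averaged 65.6 ± 11.1 CPM in heterozygous libraries and 55.3 ± 10.1 CPM in homozygous ones. Dnajc25 shares its place with Gm20503, and Dnajc14 with Ormdl2.

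Values of further members follow, some of them with a known part in human neuromuscular disease. Dnajb2 averaged 40.1 ± 1.64, 39.9 ± 3.34 and 40.1 ± 2.54 CPM in wild type, heterozygotes and homozygotes (SD, n = 4 each). Dnajb6, changed in a limb-girdle muscular dystrophy, averaged 191 ± 22.5, 167 ± 31.2 and 187 ± 21.2 CPM. Dnajc7 averaged 244 ± 8.02, 233 ± 10.3 and 238 ± 13.9 CPM and Dnajc5 240 ± 23.9, 237 ± 6.88 and 232 ± 5.91 CPM. The neuropathy gene Hspb3 fell under the count minimum, with counts in 2 of 12 libraries. The heat-inducible J protein Dnajb1 averaged 99.1 ± 6.57, 99.4 ± 20.3 and 94.6 ± 18.8 CPM. Hsph1, Hspa4, Dnaja2 and Dnaja4 had homozygote differences of -0.06, 0.03, -0.07 and 0.11 on the log2 scale. Of the J proteins of class C, 9 of 24 were above and 15 below wild type in homozygotes, with a median of -0.04, and of class B 3 were above and 6 below. Hspb11, a ciliary transport protein, differed by 0.03 and Hspbap1 by -0.18.

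The interneuron-poor libraries had more chaperone transcript of particular kinds. In both of them 14 of 69 members (20.3%) exceeded every one of the other 10 libraries, against 10.3% of all genes, and 5 (7.25%) were under all of them, against 10.6%. The libraries were picked out by interneuron markers and the shares are given as a description. Members were also more abundant than all genes tested, and shares at equal level were not computed. The 14 included both Hsp90 genes, the J proteins Dnaja1, Dnaja4, Dnajb1, Dnajb2 and Dnajc2, the small heat shock proteins Hspb1, Hspb6 and Hspb8, and Bag3, Hspa4, Hspa12a and Hspa13. Hsp90aa1 measured 2482 and 2536 CPM in heterozygote 1 and homozygote 1 against at most 2152 CPM elsewhere, and Dnaja1 683 and 712 CPM against at most 547 CPM. Of the same 15 members listed as heat-inducible, Hspa8 and Hsp90ab1 included, 7 were above. The 5 below were Bag1, Dnajb5, Dnajc11, Dnajc18 and Dnajc27, with Bag1 at 226 and 253 CPM against 274 to 336 CPM elsewhere. Hspa8 stayed within the range of the others.

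**Figure D4:**
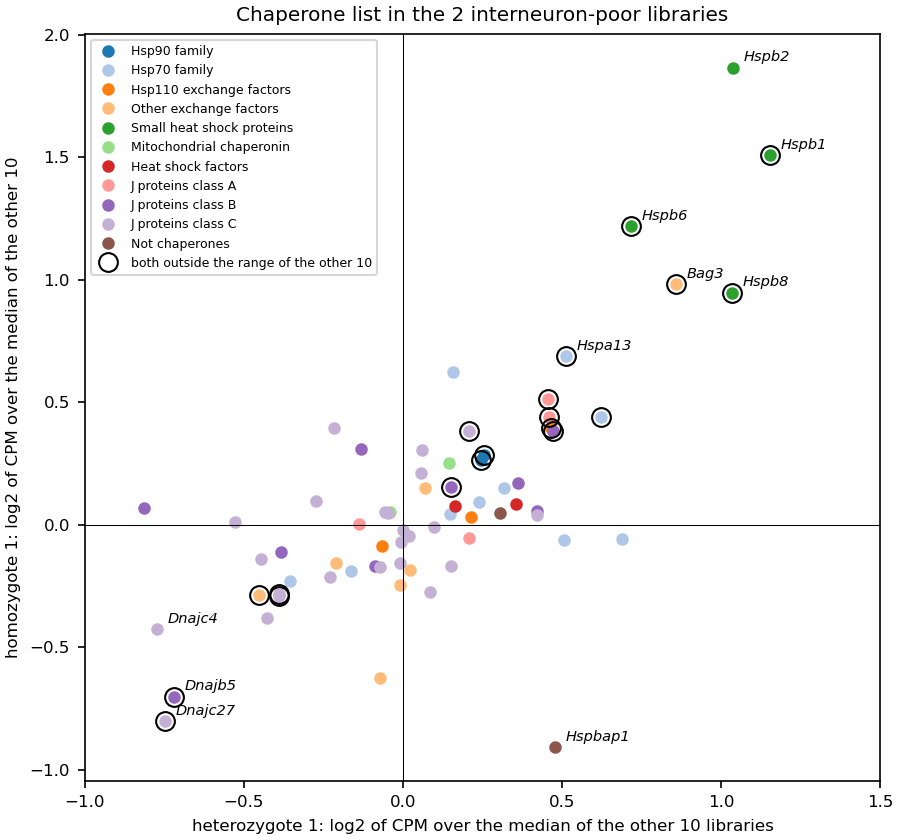
Each point is 1 member; the axes give the log2 of its CPM in heterozygote 1 (horizontal) and homozygote 1 (vertical) over the median of the other 10 libraries. Ringed points lie outside the range of the other 10 in both libraries: 14 at the upper right, led by Hspb1, Hspb6, Bag3 and Hspb8, and 5 at the lower left.

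In the same 2 libraries 8 of the 14 markers of motor neurons exceeded all other libraries and 1 was below them all. Of 8 inhibitory interneuron markers, 6 were under all the other libraries, with Gad2 at 0 in both. Astrocyte markers summed to 1542 and 1653 CPM against 1622 to 2149 CPM elsewhere, and oligodendrocyte and microglia sums lay within the range of the others. The 7 endothelial markers summed to 604 and 653 CPM against 90.3 to 260.2 CPM, of which Itm2a alone made up 596 and 640 CPM, while Cldn5, Pecam1 and Flt1 stayed within the range of the others at 4.21 CPM or less. The part of this composition in the chaperone values was not tested. In captured tissue, fewer cells of a type and less RNA per cell cannot be told apart.

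Hspb1, Hspb8 and Bag3 also varied together across the other 10 libraries. These genes, and the 7 relations computed, were chosen after their values were seen. The p-values below, adjusted over these relations, do not cover the choice among 69 members, so the relations are a description. Over 10 libraries, log2 CPM of Hspb1 and Hspb8 gave Pearson's r = 0.94 (permutation p = 5e-05, adjusted over the 7 relations 0.000175) and Spearman's rho = 0.96 (permutation p = 6e-05, adjusted 0.00042). Without wild type 3 and 4, the libraries farthest from the median of Hspb1, r was 0.94. Hspb8 and Bag3 gave r = 0.91 (permutation p = 0.00024, adjusted 0.00042; rho = 0.73, p = 0.0196, adjusted 0.0274), and r = 0.73 without the same libraries. Hspb1 and Bag3 gave r = 0.88 (permutation p = 0.002, adjusted 0.00233; rho = 0.72, p = 0.0235, adjusted 0.0274) but 0.54 without them, so this relation rests largely on wild type 3 and 4. Hspd1 and Hspe1, which share a promoter region, gave r = -0.72 (permutation p = 0.0314, adjusted 0.0314) and rho = -0.35 (permutation p = 0.333, adjusted 0.333). Their r was -0.04 without wild type 1 and homozygote 3, so that relation rests on those 2 libraries.

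The same genes were higher in libraries with more motor neuron marker RNA, again as a description. The motor neuron score, the mean log2 CPM of 14 marker genes, ran from 7.53 in wild type 4 to 8.73 in wild type 1 among the 10 libraries. Hspb8 gave r = 0.96 with it (permutation p = 1e-05, the smallest that 100000 permutations can give, adjusted 7e-05) and rho = 0.93 (permutation p = 0.00037, adjusted 0.00129). Without wild type 3 and 4 its r was 0.94, and after subtracting genotype means 0.99. Bag3 gave r = 0.89 (permutation p = 0.00042, adjusted 0.000588; rho = 0.77, p = 0.0125, adjusted 0.0218) and 0.80 without them. Hspb1 gave r = 0.85 (permutation p = 0.0001, adjusted 0.000233; rho = 0.88, p = 0.00153, adjusted 0.00357) and 0.81 without them. Among all genes, 0.0245% had an r as high as Hspb8, 0.508% as high as Bag3 and 1.1% as high as Hspb1. An r of 0.8 or more was found for 4 of 69 members (5.80%), Hspb8, Bag3, Hspb1 and Dnajc28, and for 1.90% of all genes. An r of -0.8 or less was found for 2 of 69 members, Dnajc9 (-0.85) and Hspe1 (-0.80), and for 249 of 16338 genes. With the score as a covariate in the edgeR model, an alternative chosen after seeing the data, the homozygote differences were 0.63 for Hspb1, 0.30 for Hspb8 and 0.16 for Bag3. Those of heterozygotes were 0.40, 0.14 and 0.01.

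**Figure D5:**
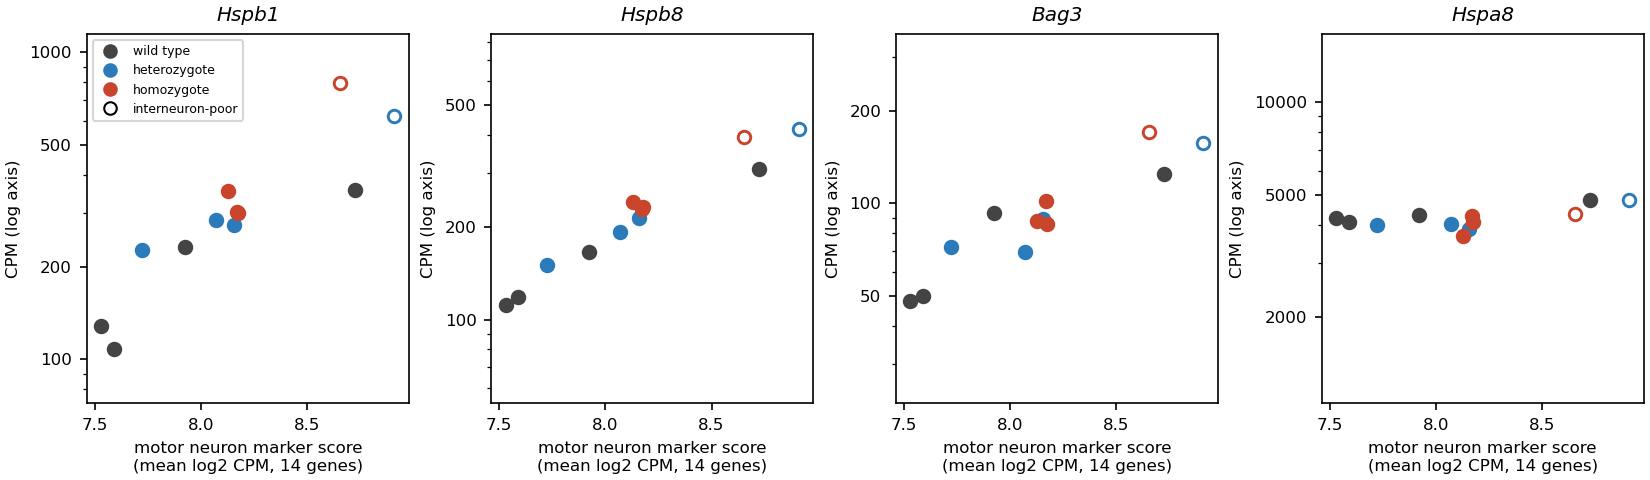
CPM on a log axis of equal span in each panel against the motor neuron score for Hspb1, Hspb8, Bag3 and Hspa8, 1 point per library; open circles are the interneuron-poor libraries. The first 3 genes are higher in libraries with a higher score, while Hspa8 stays between 3683 and 4804 CPM.

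Chaperones and partners outside the name rule were read from lists of the same model. None of them passed in homozygotes against wild type. Of 15 Hsp90 and Hsp70 partners, 11 were above wild type and 4 below, with a median of 0.04. Among them Stip1, which bridges Hsp70 and Hsp90, differed by -0.09, Tomm34 by 0.11 and Ahsa1, the activator of the Hsp90 ATPase, by 0.16. In both interneuron-poor libraries 7 of these 15 partners lay above the range of the others, beside 10.3% of all genes. So did 6 of the 8 subunits of TRiC, the cytosolic chaperonin for actin and tubulin. Shares at equal level were not computed. Between homozygotes and wild type TRiC had 3 subunits above and 5 below, with Cct3 at -0.08, Cct4 at 0.06 and Cct7 at -0.03. Prefoldin, which hands actin and tubulin to TRiC, had 1 of 5 subunits above (Pfdn1, 0.17), with Vbp1 at -0.05 and Pfdn5 at -0.02.

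Of 10 mitochondrial partners, 3 were above and 7 below. Clpx, the unfoldase of the ClpXP protease, differed by -0.35 (SE 0.14, unadjusted p = 0.0284, adjusted p = 0.986 by edgeR), Pam16 by 0.18 and Yme1l1 by -0.19. The 4 endoplasmic reticulum chaperones dropped by the rule differed by -0.18 for Dnajc3, -0.10 for Hspa5, -0.11 for Dnajb9 and 0.02 for Hsp90b1. Of 7 other heat shock response genes, 3 were above and 4 below, with Ubb, a ubiquitin gene, at 0.15, Hmox1 at -0.37 and Hsbp1, a binding protein of heat shock factor 1, at 0.11.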

How the data were processed

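For 12 libraries the authors deposited raw counts per gene. Trim Galore 0.4.3, HISAT2 2.0.5 and the build GRCm38 were used, per the submitters' processing notes. The counting program, its annotation and strand setting are not given in the sources used here. Per the labels' protocols, RNA was amplified by template switching and tagged by a transposase. These steps add no molecular identifiers and keep no strand, so reads are not independent molecules and opposite-strand genes share reads where they overlap. For 18 members, the entries overlapping them on either strand had whole counts above 10% of the member's own. The reads lying in the overlaps were not counted. GENCODE release M21 gave identifiers, exon lengths and overlaps.

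Genes were filtered with filterByExpr in edgeR 4.0.16 (R 4.3.3), which kept 16338 genes and all 69 members. Counts were scaled by TMM (factors 0.94 to 1.03). A quasi-likelihood model of the 3 genotypes over all 12 libraries gave two-sided tests, and another took the number of mutant alleles as a slope. P-values were adjusted over all genes by Benjamini-Hochberg with a threshold of 0.05, and log2 CPM used a prior count of 2. Relations across libraries used 100000 permutations (two-sided, scipy 1.17.1). Members, gene lists, tests and the naming rule were chosen with earlier results of these data known. The naming rule took Hsf1 and Hsf2, the 10 highest levels, the 3 smallest p-values in each direction, the 5 largest coefficients of variation, disease-linked members and classes of 4 or fewer. For lists outside the rule, it took the 3 smallest p-values. Chosen after their values were seen were Dnajc9, Dnajc24, Hspa12a, Hspa13, Dnajc2, Dnajc11, Dnajc18, Dnajb5 and Dnajc28, which complete small counts.

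Alternatives were DESeq2 1.42.0, limma-voom (limma 3.58.1) with quality weights, DESeq2 size factors, a stricter filter or none, a replicate block, a covariate for how many genes each library detected, a fit to only the compared libraries, leaving out each library, leaving out both interneuron-poor libraries, and, added after seeing the data, the motor neuron score as a covariate.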

Additional observations from a re-analysis of the deposited data

Results flagged for a closer look

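In groups of 4 libraries, 1 library stood far from the other 3 in 11 of 117 groups examined (39 named genes in 3 genotypes). Chance flags about 1 in 20 groups, and libraries share their composition. Every one of the 11 is heterozygote 1 or homozygote 1, the interneuron-poor libraries. In heterozygote 1, Hspa8 was highest at 4795 CPM against 3859 to 4009 CPM in the other heterozygotes, Dnaja1 at 683 CPM against 478 to 503 CPM, and Hspb1 at 621 CPM against 227 to 285 CPM. Hspb6 was highest there at 46.5 CPM against 25.5 to 26.9 CPM, Hsf1 at 41.4 CPM against 31.8 to 33.2 CPM and Hspb11 at 12.7 CPM against 10.1 to 10.3 CPM. Bag1 was lowest in heterozygote 1 at 226 CPM against 306 to 319 CPM, and Dnajc27 at 59.1 CPM against 87.7 to 93.2 CPM. In homozygote 1, Hspb1 was highest at 796 CPM against 299 to 354 CPM in the other homozygotes, Hspb8 at 393 CPM against 229 to 242 CPM and Hsp90aa1 at 2536 CPM against 2048 to 2083 CPM.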

How the results depend on the processing

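Members called stayed at 0 in all 5 comparisons under every alternative that was run. Over all genes, DESeq2 called 31 genes between homozygotes and wild type, 27 between heterozygotes and wild type, 19 between homozygotes and heterozygotes, 16 for any difference and 16 for the slope, where edgeR called 1, 0, 0, 0 and 1. The median log2 difference of the members moved to -0.041 in homozygotes and -0.0523 in heterozygotes when genes detected per library entered as a covariate. Leaving out each library in turn gave medians from -0.0298 to 0.0482 between homozygotes and heterozygotes, the latter without heterozygote 1. The 32 named differences were refitted under the alternatives, which share most libraries. Of these refits, 688 stayed on the same side and 10 reversed sign, none of them called. Bag3 in heterozygotes was -0.0897 with genes detected as a covariate and -0.0322 without both interneuron-poor libraries, and ran from -0.0349 (without heterozygote 1) to 0.614 (without wild type 1) with 1 library left out. Hspa12b in heterozygotes was -0.0823 without both interneuron-poor libraries and -0.00817 with the motor neuron score. With 1 library left out it ran from -0.107 to 0.716, and was below 0 without wild type 2, wild type 4 or heterozygote 1. In homozygotes it ran from -0.0104 (without homozygote 3) to 0.836, and Hspbap1 from -0.641 to 0.049 (without homozygote 4). Hspb1 in homozygotes ran from 0.63 (without homozygote 1) to 1.49 (without wild type 1) with 1 library left out, and was 0.478 with genes detected as a covariate. The cause was not tested. The labels share replicate numbers and do not say whether these pair the libraries. Correlations of same-numbered libraries ran from -0.05 to 0.45, and those of other pairs from -0.23 to 0.13. Of 12 same-numbered pairs, 3 were over 0.1, those among the libraries numbered 1 (0.106, 0.114 and 0.454). Only 4 of 12 libraries correlated best with their own number. With the replicate block 0 members were called, the median was -0.0012 in homozygotes, and Hspb1 was 1.104 (adjusted p = 0.123 by edgeR, against 0.986 without it). That block gave 4 genes for the slope over all genes.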

Other observations

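Cryab, the small heat shock protein alpha-B crystallin, lies outside the name rule and was looked at after its values were seen. It measured 78.2, 111, 112 and 93.5 CPM in wild type, 253, 81.2, 101 and 85.4 CPM in heterozygous libraries and 262, 123, 126 and 78.5 CPM in homozygous ones. The interneuron-poor libraries were the highest of their genotypes, and the other 10 libraries overlapped between genotypes. Unlike Hspb1, Hspb8 and Bag3, Cryab was lowest of all in wild type 1, the library with the highest motor neuron score of the other 10. Hspb2, which overlaps Cryab on the other strand, measured 1.34, 0.720, 1.25 and 0.214 CPM in wild type and 3.63 CPM in homozygote 1.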
